A study of Mus musculus with 6 samples.

Results

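The genes described here are the T cell growth factor gene Il2, the 3 chains of its receptor (Il2ra, Il2rb, Il2rg), the STAT5 target genes Cish, Pim1 and Osm, and the cytokine signal suppressors Socs1, Socs2 and Socs3. They were chosen by gene name, with earlier results of these data known. All 10 were found, with 1 row each, among the 21139 genes of the deposited table. RNA was measured in 6 libraries of CD4+ T cells from the spleen of C57BL/6J mice, all activated for 2 days with anti-CD3 and anti-CD28 antibodies, which stand in for antigen and co-stimulation. In 3 libraries the cells had CpdA, named in the study's design as an agonist of the fatty acid receptor Gpr120, at 20 µM (the labels write the unit as "microm"). In the other 3 libraries they had medium alone. The sources used here give neither the age of the mice nor the vehicle of CpdA. Whether replicate libraries stem from different mice or cultures is not stated, and the p-values therefore reflect the scatter among these libraries alone, part or all of which may be technical.

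Interleukin-2 is secreted by activated T cells and acts back on them. Its receptor joins an alpha chain, which raises the affinity, to a beta chain and to the common gamma chain, which also serves the receptors for several other interleukins. The kinases JAK1 and JAK3, held by the beta and gamma chains, phosphorylate the transcription factors STAT5A and STAT5B, which enter the nucleus and switch on genes such as Il2ra, Cish, Socs2, Pim1 and Osm. CIS, the product of Cish, and the SOCS proteins carry an SH2 domain that binds phosphorylated receptors or kinases and a SOCS box that recruits a ubiquitin ligase, and they damp the signal that induced them.

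Library totals ran from 20247761 to 25952169 counts, and the ranges of the groups overlapped. The CD4 T cell markers were abundant in both groups, with a summed level of 2566 to 2615 CPM (read counts scaled to a common library total) in CpdA libraries and 2650 to 2706 CPM in medium libraries. Of these markers, Cd5 and Trbc2 were higher in every CpdA library than in any medium library, and the others were lower on average. Cd5 had 659.8, 616.6 and 637.4 CPM with CpdA, against 561.9, 589.0 and 569.3 CPM in medium. Markers of other cells were low: CD8 T cell markers summed to 7.33 to 9.40 CPM with CpdA and 7.99 to 8.84 CPM in medium, and B cell markers to 25.8 to 30.5 CPM and 24.6 to 30.1 CPM. Foxp3, the regulator of regulatory T cells, which carry a high level of the alpha chain, averaged 8.80 CPM with CpdA and 9.35 CPM in medium (log2 fold change -0.09, adjusted p = 0.551, edgeR). Sums that did not overlap between the groups were those of the 9 CD4 T cell markers, of 4 macrophage markers (4.20 to 4.34 CPM with CpdA, 4.78 to 5.83 CPM in medium) and of 5 dendritic cell markers (6.86 to 8.22 CPM with CpdA, 6.12 to 6.56 CPM in medium). The sum of 5 regulatory T cell markers, which include Il2ra itself, did not overlap either (3639 to 3732 CPM with CpdA, 3742 to 3803 CPM in medium). In that list Ikzf2 was lower with CpdA (log2 fold change -0.51, adjusted p = 1.3e-05, edgeR), and Ctla4 had 594.9, 652.3 and 600.7 CPM with CpdA, against 833.6, 776.8 and 836.3 CPM in medium, while Il2ra had its higher values with CpdA. The mitochondrial share of counts was 1.47%, 1.52% and 1.46% with CpdA and 1.41%, 1.36% and 1.46% in medium, also without overlap before rounding. The part of these differences in the results below was not tested. In bulk RNA, fewer cells of a type and less RNA per cell cannot be told apart.

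With CpdA, 6 of the 10 genes passed the test, 3 in each direction. Socs2, the gamma chain gene Il2rg and, by a small margin, Pim1 were higher, and Il2, Socs3 and, by a small margin, the beta chain gene Il2rb were lower. The test was edgeR's quasi-likelihood test over all 13507 genes that passed a filter on low counts, with a Benjamini-Hochberg adjusted p under 0.05 as the threshold. The background was 33.2% of all tested genes, and 47.6% of the genes above the median level, where 9 of these genes lie. For single directions it was 16.5% higher and 16.7% lower, and above the median level 25.9% higher and 21.8% lower. Of the 6 genes, 5 changed by less than 1.5-fold, and the median log2 fold change over the 10 was 0.05, against 0.0004 over all tested genes. CPM values of CpdA and medium libraries did not overlap for 7 of the 10 genes, against 43.9% of all tested genes. The 10 were chosen with earlier results of these data known, so these shares are a description.

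**Figure D1:**
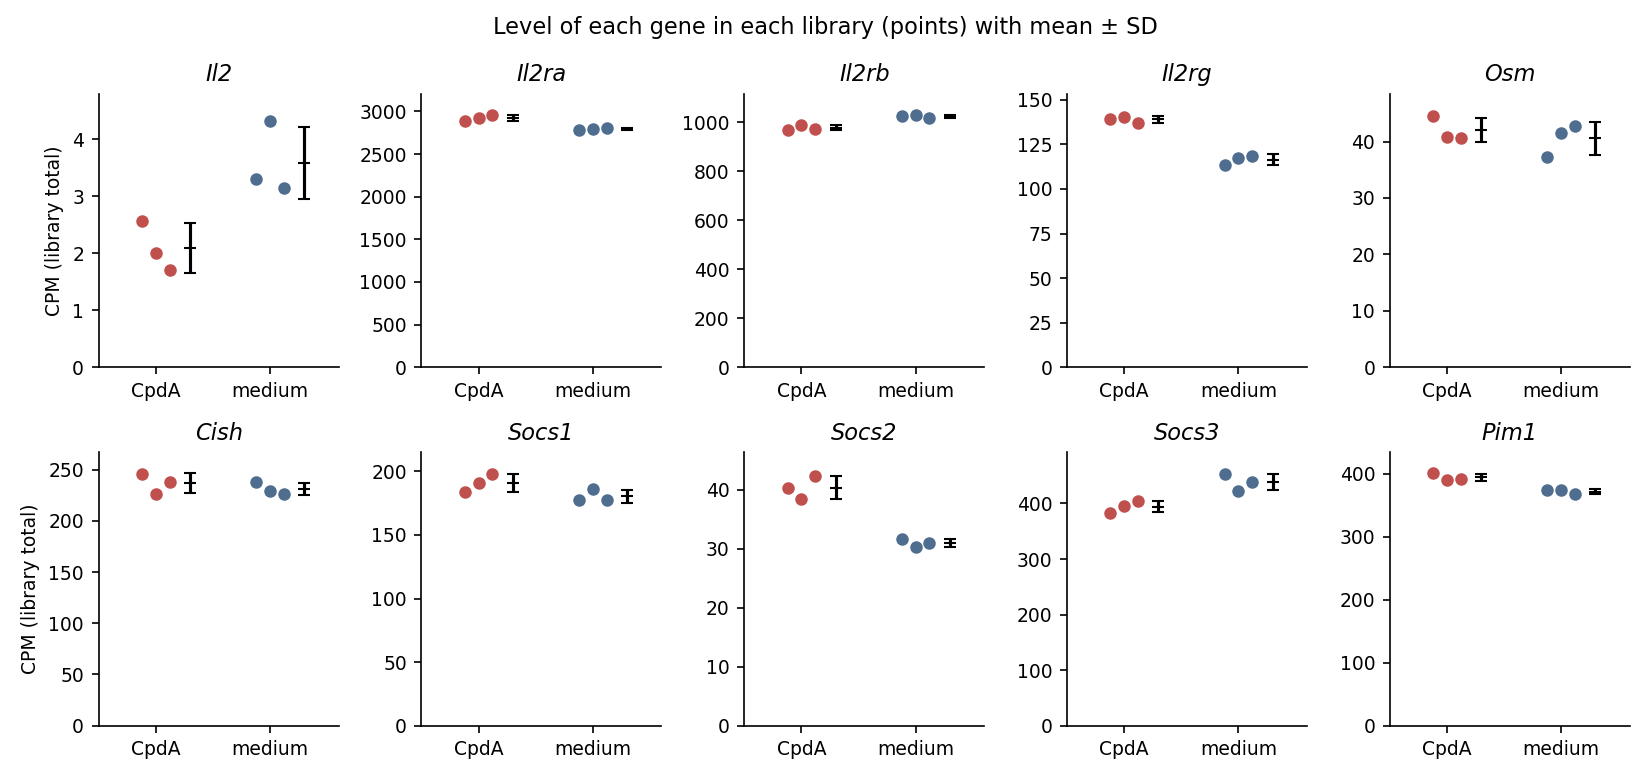
CPM (scaled to the library total, vertical axes from 0) of each gene in the 3 CpdA libraries (red, left) and the 3 medium libraries (blue, right), with mean ± SD beside them. Il2 lies lower and Il2rg and Socs2 lie higher in every CpdA library than in any medium library, while Cish, Socs1 and Osm overlap between the groups.

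Il2 (chromosome 3, 37120523 to 37125959, minus strand, GRCm38) codes for the cytokine itself and had the largest change of the 10, at the lowest level per length. It had 55, 52 and 43 counts in CpdA libraries, against 67, 102 and 72 counts in medium libraries. These are 2.57, 2.00 and 1.71 CPM with CpdA, against 3.31, 4.31 and 3.15 CPM in medium. Every CpdA library was below every medium library. The log2 fold change was -0.80 ± 0.19 (SE, adjusted p = 0.00116, edgeR), with a 95% interval of -1.20 to -0.41. Summed over a group, 150 counts gave 2.07 CPM with CpdA (exact Poisson 95% interval 1.75 to 2.43) and 241 counts gave 3.61 CPM in medium (3.17 to 4.10). These intervals cover counting error only. The call held without any 1 library, at -0.96 to -0.64. Adad1, which overlaps Il2 on the other strand in the GENCODE M21 annotation, had 1 to 10 counts a library. The nearest tested gene on one side, Il21, a cytokine of the same gamma chain family, averaged 101 CPM with CpdA and 104 CPM in medium (log2 fold change -0.06, adjusted p = 0.282, edgeR).

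The promoter of Il2 is a classic site of activation signals, and is shown because this gene had the largest change. The window of RefSeq's GRCm38.p6 annotation, from 250 bases before to 50 bases after the start (chr3:37125905-37126204, minus strand), holds GGAAA, the core bound by NFAT factors, at -137 and on the other strand at -47 (capitals). At least 1 such core is found on either strand in 61.3% of the 32851 promoter windows of the same length, and 2 or more in 26.7%. Among the genes described here, the windows of Il2rg and Cish held 2 and 4, and a window of Pim1 held 3. The sequence is a description, not a cause.
Il2: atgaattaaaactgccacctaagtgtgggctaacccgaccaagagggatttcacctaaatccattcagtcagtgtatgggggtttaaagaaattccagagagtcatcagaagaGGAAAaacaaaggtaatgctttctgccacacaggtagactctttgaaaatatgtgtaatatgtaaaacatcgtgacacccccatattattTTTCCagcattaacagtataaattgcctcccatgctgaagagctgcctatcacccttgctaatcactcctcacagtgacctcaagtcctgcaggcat

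The receptor chains did not move together. Il2rg (chromosome X, 101264378 to 101268255, minus strand), the common gamma chain, had 139.5, 140.5 and 137.0 CPM in CpdA libraries, against 113.2, 117.6 and 118.6 CPM in medium libraries. All CpdA values lay above all medium values, and the log2 fold change was 0.24 ± 0.04 (SE, adjusted p = 4.4e-07, edgeR). Il2rb (chromosome 15, 78480553 to 78495066, minus strand), the beta chain, which also serves the IL-15 receptor, had 969.0, 989.2 and 974.2 CPM with CpdA, against 1027, 1030 and 1017 CPM in medium. Its groups did not overlap, but the difference was small (log2 fold change -0.08 ± 0.03, SE, adjusted p = 0.0162, edgeR). The call of Il2rb was lost without CpdA replicate 1 (adjusted p = 0.0607), CpdA replicate 3 (0.0753) or medium replicate 1 (0.0503).

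Il2ra (chromosome 2, 11642792 to 11693191, plus strand), the alpha chain and a marker of T cell activation, was the highest of the 10 per length. Its rank among all genes by FPKM, the deposited level per gene length and library total, was 104 to 109 over the 6 libraries. It had 2888, 2917 and 2963 CPM in CpdA libraries, against 2783, 2795 and 2800 CPM in medium libraries. The groups did not overlap, yet the gene did not pass (log2 fold change 0.06 ± 0.02, SE, adjusted p = 0.0587, edgeR). Its unadjusted 95% interval was 0.01 to 0.10. It lay close to the threshold, and passed with library totals as the scaling (adjusted p = 0.0222), with DESeq2 (0.0385), with limma-voom (0.0123) and, in edgeR, without CpdA replicate 1 (0.0493).

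Ratios within a library do not depend on how libraries are scaled. The level of Il2rb per length was 4.31, 4.37 and 4.41 times that of Il2rg in CpdA libraries, against 5.63, 5.43 and 5.32 times in medium libraries. The ratio of Il2ra to Il2rg averaged 7.94 ± 0.20 with CpdA and 9.05 ± 0.20 in medium (SD, n = 3 each), and that of Il2ra to Il2rb 1.82 ± 0.03 and 1.66 ± 0.01. The gamma chain transcript thus made up more of the receptor transcripts in every CpdA library than in any medium library, and remained the scarcest of the 3 chains per length in both groups. In the GENCODE M21 annotation, Gm20489 overlaps Il2rg on the same strand, and had 0 to 2 counts a library. Gm37881 overlaps Il2ra on the same strand and is not among the deposited genes. How reads in such overlaps were counted is not given, and any effect on these levels was not tested. Each of these ratios had an exact two-sided permutation p = 0.1 (n = 3 each), the smallest that 3 libraries against 3 can give, or 0.117 adjusted over the 7 ratios tested.

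**Figure D2:**
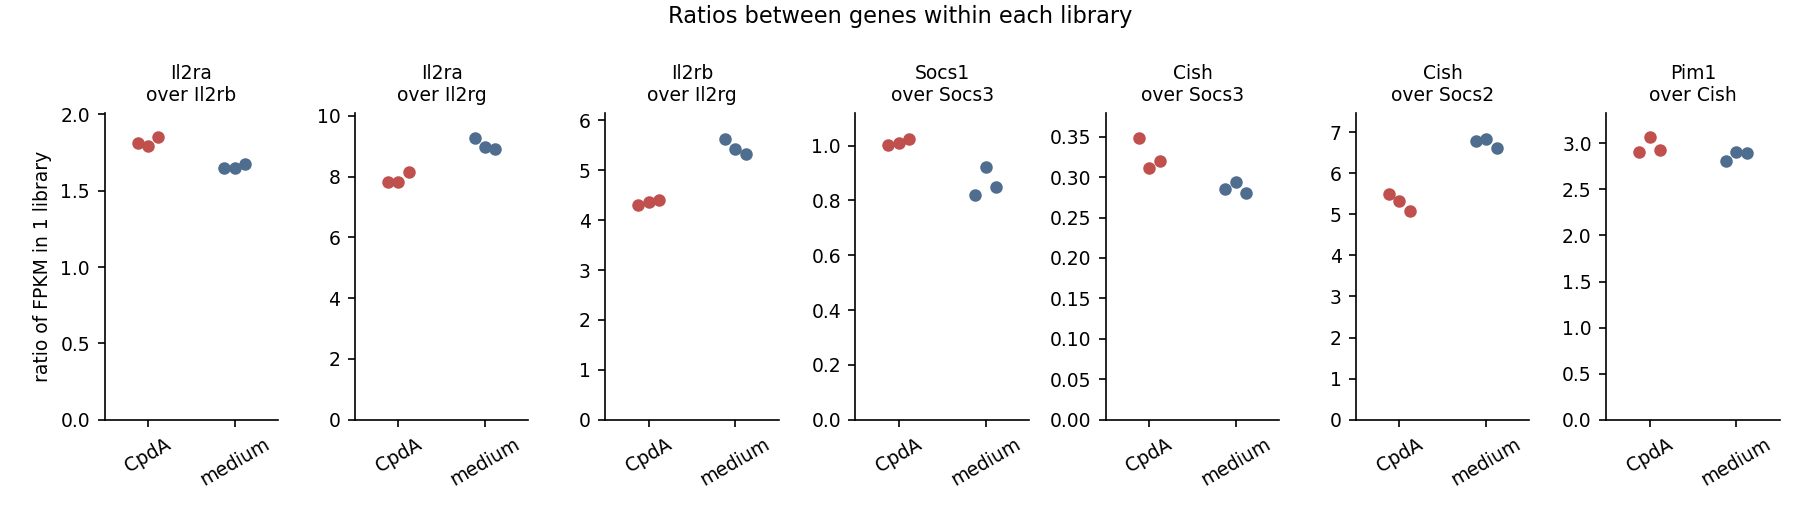
Ratio of the FPKM of 2 genes within each library (vertical axes from 0) for 7 pairs of genes, with the 3 CpdA libraries in red on the left and the 3 medium libraries in blue on the right. The groups do not overlap for 6 pairs, and overlap for Pim1 over Cish.

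The suppressor genes went different ways. Socs2 (chromosome 10, 95385362 to 95417180, minus strand), a STAT5 target best known as a brake on growth hormone signalling, had 40.3, 38.4 and 42.3 CPM in CpdA libraries, against 31.7, 30.3 and 30.9 CPM in medium libraries. Every CpdA library was above every medium library, at a log2 fold change of 0.37 ± 0.06 (SE; edgeR adjusted p = 1.1e-06). Socs3 (chromosome 11, 117966079 to 117970047, minus strand), which binds gp130 and is induced mainly through STAT3, had 383.5, 395.0 and 404.3 CPM with CpdA, against 452.4, 423.3 and 438.7 CPM in medium. The groups were again apart, in the other direction, and the log2 fold change of Socs3 came to -0.16 ± 0.03 (SE; edgeR adjusted p = 3.3e-05). Both calls held without any 1 library, at 0.34 to 0.41 for Socs2 and -0.18 to -0.14 for Socs3.

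Socs1 (chromosome 16, 10783808 to 10785536, minus strand), a direct inhibitor of JAK kinases, had 183.7, 190.9 and 198.2 CPM in CpdA libraries, against 177.5, 186.5 and 177.7 CPM in medium libraries. The groups overlapped and the gene did not pass (log2 fold change 0.07, 95% interval 0.0039 to 0.14, adjusted p = 0.0988, edgeR), though it did without CpdA replicate 1 (adjusted p = 0.0313) or medium replicate 2 (0.0354). Cish (chromosome 9, 107296026 to 107302784, plus strand), among the genes most directly induced by IL-2 through STAT5, had 245.5, 226.6 and 238.3 CPM with CpdA, against 238.0, 228.9 and 226.0 CPM in medium. These values overlapped, at a log2 fold change of 0.03 ± 0.03 (SE; edgeR adjusted p = 0.582) and a 95% interval of -0.04 to 0.09. Its fold change was 0.0015 without CpdA replicate 1 and 0.0579 without CpdA replicate 2, and passed in neither case (adjusted p = 0.980 and 0.210). Gm17040 and Gm17041, annotated on the strand opposite Cish, overlap it, and Gm17040 had 40 to 78 counts a library against 4818 to 6007 for Cish. Within libraries, Socs1 exceeded Socs3 per length by a ratio of 1.01 ± 0.01 with CpdA and fell short of it at 0.86 ± 0.05 in medium (SD, n = 3 each). Cish per length was 5.31 ± 0.21 times Socs2 with CpdA and 6.74 ± 0.12 times in medium, and 0.33 ± 0.02 times Socs3 with CpdA and 0.29 ± 0.01 times in medium. The groups did not overlap for these 3 ratios (exact two-sided permutation p = 0.1 each, n = 3 each, the smallest possible, and 0.117 adjusted).

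STAT5 binds TTCNNNGAA, a palindrome that reads the same on both strands. Promoter windows were found for 7 of the 10 genes, and this motif was in those of Cish and Socs3 only. They are shown because these are the windows of the 7 that hold it. No window was listed for Il2rb, Socs2 or Osm. The sequences are RefSeq's, GRCm38.p6, from 250 bases before to 50 bases after the start, at chr9:107296409-107296708 (plus strand) for Cish and chr11:117969317-117969616 (minus strand) for Socs3. Both windows lie within the gene coordinates given above, so the RefSeq starts used here are downstream of the gene starts in the deposited table. Capitals mark the matches, which begin at 1 and 12 in Cish and at -154 in Socs3, counted from the start.
Cish: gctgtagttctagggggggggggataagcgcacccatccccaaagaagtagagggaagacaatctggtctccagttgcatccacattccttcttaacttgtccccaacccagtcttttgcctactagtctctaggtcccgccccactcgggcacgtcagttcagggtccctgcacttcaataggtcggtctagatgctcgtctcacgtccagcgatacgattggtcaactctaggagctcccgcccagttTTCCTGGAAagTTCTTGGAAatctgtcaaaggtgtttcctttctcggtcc
Socs3: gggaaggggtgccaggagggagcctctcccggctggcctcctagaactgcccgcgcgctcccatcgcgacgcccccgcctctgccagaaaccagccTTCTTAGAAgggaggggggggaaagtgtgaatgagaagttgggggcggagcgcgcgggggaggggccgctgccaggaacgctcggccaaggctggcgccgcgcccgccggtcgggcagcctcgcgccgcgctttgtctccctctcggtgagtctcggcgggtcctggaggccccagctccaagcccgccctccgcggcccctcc
At least 1 match was present in 8.30% of all 32851 promoter windows and 2 or more in 0.457%. The windows of Il2, Il2ra, Il2rg, Socs1 and Pim1 (for which 2 starts are listed) held none. The wider form, with 4 bases between TTC and GAA where the first has 3, and the AP-1 site TGANTCA, in 6.95% and 7.81% of all windows on either strand, were in none of these 7 genes' windows. A match is a description of the letters, and no match says only that they are not in this window.

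Pim1 (chromosome 17, 29490812 to 29496111, plus strand), a survival kinase, had 400.9, 390.4 and 392.3 CPM in CpdA libraries, against 374.5, 373.9 and 367.5 CPM in medium libraries. The groups did not overlap, and the log2 fold change was 0.08 ± 0.03 (SE, adjusted p = 0.0352, edgeR). This call was lost without CpdA replicate 1 (adjusted p = 0.115), CpdA replicate 3 (0.0607), medium replicate 1 (0.0575) or medium replicate 3 (0.143), and with a filter of 5 CPM in 3 libraries (0.0549). Its relatives Pim2 and Pim3, which are also STAT5 targets, moved the other way and further. Pim2 averaged 287 ± 5 CPM with CpdA and 359 ± 8 CPM in medium (SD, n = 3 each; log2 fold change -0.33, adjusted p = 7.9e-12, edgeR), and Pim3 133 ± 7 CPM and 167 ± 1 CPM (-0.34, adjusted p = 3.7e-10).

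Osm (chromosome 11, 4236420 to 4241026, plus strand) codes for oncostatin M, a cytokine that signals through gp130. It had 44.6, 40.8 and 40.7 CPM in CpdA libraries, against 37.3, 41.6 and 42.8 CPM in medium libraries. The values overlapped, at a log2 fold change of 0.04 ± 0.06 (SE; edgeR adjusted p = 0.671) and a 95% interval of -0.08 to 0.15. Its sign turned without CpdA replicate 1 (-0.004) or medium replicate 1 (-0.02). Lif, its neighbour 16531 bases downstream and a cytokine of the same family, had a mean level per length of 189 FPKM with CpdA and 209 FPKM in medium. It was lower with CpdA, at 743.9, 782.4 and 755.9 CPM against 853.8, 841.5 and 826.3 CPM in medium (log2 fold change -0.15, adjusted p = 1.8e-05, edgeR).

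**Figure D3:**
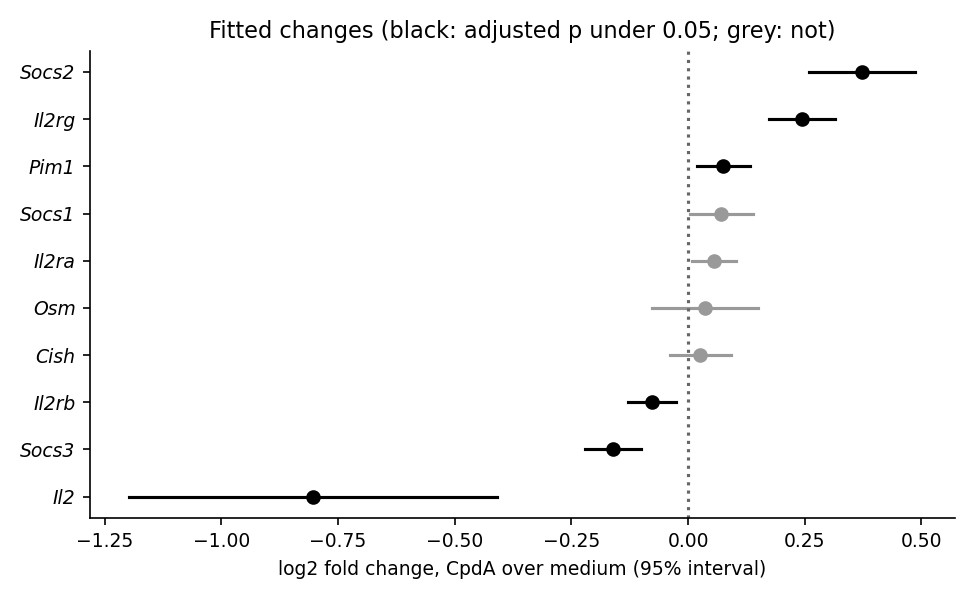
Fitted log2 fold change of CpdA over medium for each gene (points) with its 95% interval (lines, not adjusted for the number of genes). Genes in black passed an adjusted p of 0.05 and those in grey did not, and Il2, the gene with the fewest counts, has the widest interval.

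Per length, the order of the levels was nearly the same in both groups. In CpdA libraries mean FPKM fell along the order Il2ra (661), Il2rb (363), Socs1 (156), Socs3 (154), Pim1 (150), Il2rg (83.2), Cish (50.4), Osm (18.5), Socs2 (9.51) and Il2 (1.83). In medium libraries it was Il2ra (631), Il2rb (381), Socs3 (172), Socs1 (148), Pim1 (141), Il2rg (69.8), Cish (49.2), Osm (17.9), Socs2 (7.29) and Il2 (3.14). Socs1 and Socs3 changed places. With CpdA the ranges of Socs1 and Socs3 overlapped, as did those of Socs3 and Pim1, whereas in medium the ranges of all neighbours in the order were apart.

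**Figure D4:**
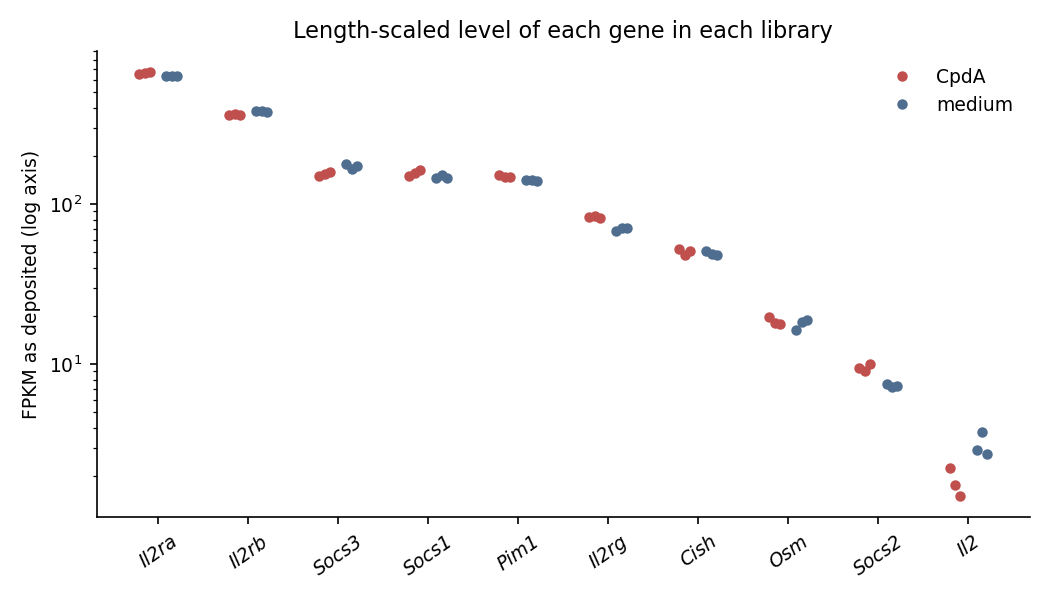
FPKM as deposited (log axis) of each gene in each library, with CpdA in red on the left and medium in blue on the right of each pair. The levels span from 1.49 FPKM for Il2 with CpdA to 670 FPKM for Il2ra with CpdA.

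The genes that carry the signal below the receptor were lower with CpdA or did not pass. Of 12 transducer genes, 6 were lower and 0 higher, with a median log2 fold change of -0.08, against 16.7% lower and 16.5% higher among all tested genes. Stat5b, which codes for a STAT5 protein, had 363.9, 385.7 and 389.0 CPM in CpdA libraries, against 494.3, 482.4 and 484.6 CPM in medium libraries. Stat5a had 419.5, 431.5 and 428.4 CPM with CpdA, against 503.5, 504.5 and 494.2 CPM in medium. Both genes lay lower in every CpdA library than in any medium library, with log2 fold changes of -0.37 ± 0.03 (SE, adjusted p = 4.0e-13, edgeR) and -0.24 ± 0.03 (adjusted p = 4.0e-09). Jak3, the kinase bound to the gamma chain, had 462.7, 461.3 and 485.5 CPM with CpdA, against 575.9, 563.6 and 549.3 CPM in medium (log2 fold change -0.27 ± 0.03, SE, adjusted p = 5.0e-10, edgeR). Pik3cd, a catalytic subunit of PI3 kinase, was also lower (-0.28, adjusted p = 1.4e-10). Jak1, the kinase of the beta chain, averaged 273 CPM with CpdA and 285 CPM in medium and missed the threshold (-0.07, adjusted p = 0.0553), which it passed under the filter of 5 CPM (0.0200).

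**Figure D5:**
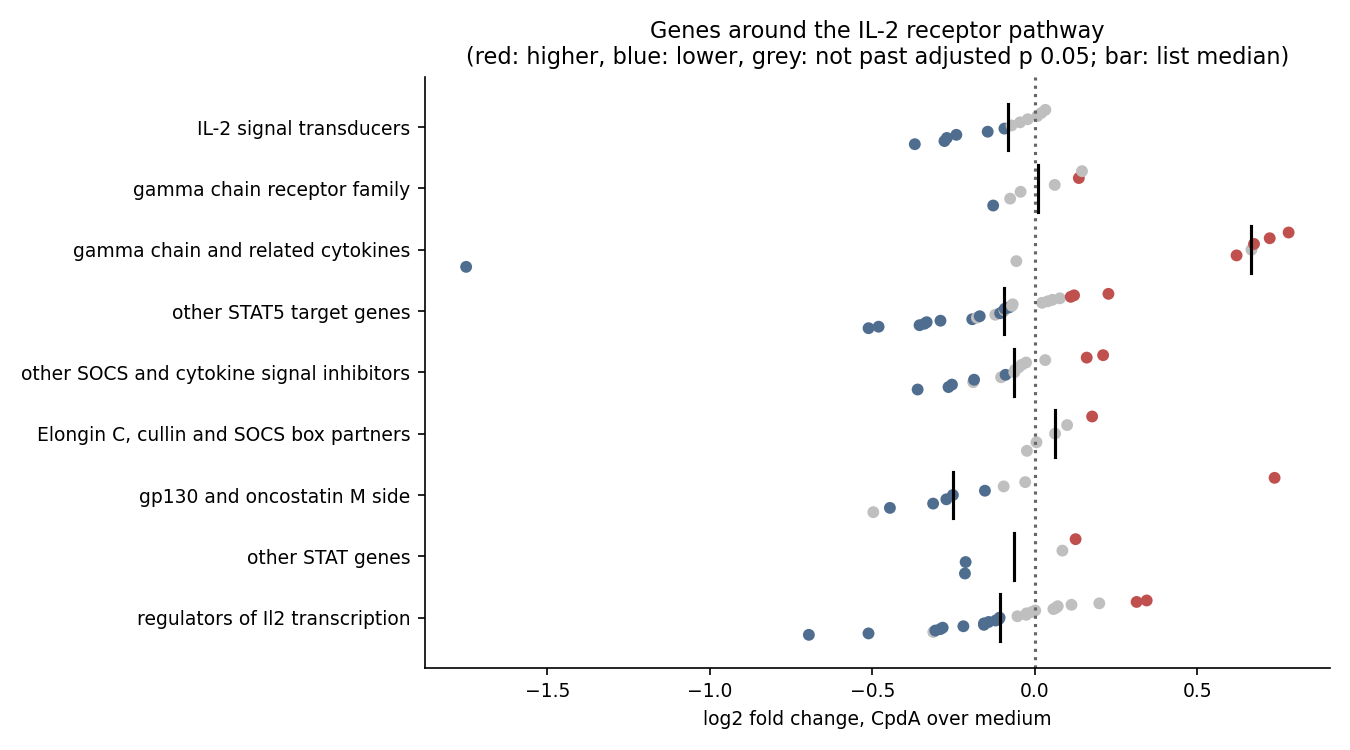
Log2 fold change of CpdA over medium (horizontal axis) of each tested gene in 9 lists around the receptor, in red where higher, blue where lower and grey where not past an adjusted p of 0.05, with the median of each list as a bar. In the transducer list 6 of 12 genes are lower and 0 higher.

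Of 24 other STAT5 target genes, 12 were lower and 3 higher, with a median of -0.10, against 16.7% lower and 16.5% higher among all tested genes. Of these 24, 21 lie above the median level, where 21.8% of genes were lower and 25.9% higher. Gzmb, the gene of the cytotoxic protease granzyme B, had 856 ± 12 CPM with CpdA and 1187 ± 15 CPM in medium (SD, n = 3 each; log2 fold change -0.48, adjusted p = 3.0e-18, edgeR). Both the cell cycle inhibitor gene Cdkn1a (-0.29, adjusted p = 6.2e-11) and the cyclin gene Ccnd2 (-0.17, 6.4e-06) were lower. The cytokine gene Lta went the other way, at 0.23 (3.9e-07).

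Among 6 genes for receptor chains related to the gamma chain, 1 was higher and 1 lower, a share near the 33.2% called among all tested genes. Il4ra, which pairs with the gamma chain to bind IL-4, averaged 700 ± 9 CPM with CpdA and 633 ± 13 CPM in medium (SD, n = 3 each; log2 fold change 0.14, adjusted p = 1.0e-04, edgeR). Il21r averaged 358 ± 11 and 388 ± 6 CPM (-0.13, adjusted p = 5.8e-04). Of 7 tested cytokine genes of the family and its neighbours, 4 were higher and 1 lower (all tested genes, 16.5% and 16.7%). Only 3 of the 7 lie above the median level of all tested genes. Their median, 0.67, was the value of Il15, which did not pass (adjusted p = 0.226, edgeR). Csf2 was higher (0.78, adjusted p = 0.0229, edgeR), but its CPM values overlapped between the groups. Il13 (0.72, adjusted p = 2.0e-20), Il4 (0.68, 9.6e-12) and Il9 (0.62, 0.00388) were higher. Il3, a growth factor of blood cells, had 1.35, 1.00 and 1.55 CPM in CpdA libraries, against 4.44, 4.70 and 3.89 CPM in medium libraries (-1.75 ± 0.20, SE, adjusted p = 3.7e-09, edgeR). Il3 and Il2 were both lower and both scarce per length, Il3 with a mean of 2.07 FPKM with CpdA and 6.91 FPKM in medium. Low level and direction did not go together, as Il9, which was higher, had a mean of 7.66 FPKM with CpdA and 4.93 FPKM in medium. Il13 had a mean of 159 FPKM with CpdA and 95.4 FPKM in medium.

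Of 15 other inhibitors of cytokine signals, 2 were higher and 5 lower, with a median of -0.06. The share called, 46.7%, was near the 47.6% of all genes above the median level, where 12 of the 15 lie. The ubiquitin ligase genes Cblb (-0.36, adjusted p = 1.5e-12) and Cbl (-0.25, 0.00568) and the phosphatase genes Ptpn6 (-0.27, 4.5e-09) and Ptpn1 (-0.19, 3.4e-06) were lower. Of the remaining SOCS genes, Socs6 was higher (0.21, adjusted p = 0.0393, edgeR). Its call was lost without CpdA replicate 1 (0.135), CpdA replicate 3 (0.0697), medium replicate 2 (0.244) or medium replicate 3 (0.0638) and with DESeq2 (0.0921). Socs4 (-0.04, adjusted p = 0.519), Socs5 (-0.19, 0.0832) and Socs7 (-0.06, 0.352) did not pass, though Socs5 did without medium replicate 2 (0.0290). Among 5 tested partners of the SOCS box, 1 was higher, the elongin C gene Tceb1 (0.18, adjusted p = 5.3e-04, edgeR), and 0 were lower. The share called was 20.0%, against 47.6% of all genes above the median level, where all 5 lie.

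On the gp130 side, which Osm and Socs3 share, 5 of 9 tested genes were lower and 1 higher (all tested genes, 16.7% and 16.5%), with a median of -0.25. Of these 9, 6 lie above the median level, where 21.8% of genes were lower and 25.9% higher. The higher gene, Il6, had 3.41, 3.04 and 2.46 CPM in CpdA libraries, against 1.14, 2.24 and 1.84 CPM in medium libraries (log2 fold change 0.74, adjusted p = 0.00729, edgeR). Stat3, the factor that gp130 activates, had 600.8, 632.0 and 617.1 CPM in CpdA libraries, against 772.2, 750.7 and 759.8 CPM in medium libraries (log2 fold change -0.31 ± 0.03, SE, adjusted p = 5.8e-12, edgeR). Il6st, the gene for gp130, averaged 50.9 CPM with CpdA and 61.2 CPM in medium (-0.27, adjusted p = 2.7e-05), and Il6ra 37.3 and 44.2 CPM (-0.25, 4.2e-04). Osmr, the oncostatin M receptor chain, was under the filter, at 0.405 CPM with CpdA and 0.242 CPM in medium. Of 4 further STAT genes, Stat6 (-0.21, adjusted p = 2.7e-07) and Stat4 (-0.21, 0.00363) were lower and Stat2 (0.13, 0.00503) was higher. The share called was 75.0% of these 4, against 47.6% of all genes above the median level, where all 4 lie. The call of Stat4 was lost without medium replicate 3 (adjusted p = 0.0536).

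Of 25 genes for regulators of Il2 transcription, 12 were lower and 2 higher (all tested genes, 16.7% and 16.5%), with a median of -0.11. Of these 25, 19 lie above the median level, where 21.8% of genes were lower and 25.9% higher. In either direction 56.0% of the 25 were called, against 47.6% of all genes above that level. The list was not split into activators and repressors of Il2. Nfatc1, a calcium-driven factor, averaged 105 ± 3 CPM with CpdA and 129 ± 2 CPM in medium (SD, n = 3 each; log2 fold change -0.31, adjusted p = 9.1e-09, edgeR). Fosl2, an AP-1 subunit (-0.28, adjusted p = 3.7e-10), and the zinc finger factor gene Egr3 (-0.51, 1.7e-05) were also lower. Its relative Egr1 was higher (0.31, 1.9e-09). Over all 9 lists, 44 of 107 tested genes were lower (41.1%, against 16.7% of all tested genes) and 15 higher (14.0%, against 16.5%). Of the 107, 84 lie above the median level, where 21.8% of genes were lower and 25.9% higher; 55.1% of the 107 were called in either direction, against 47.6% of the genes above that level. These lists were drawn up with earlier results of these data known, and their shares are a description.

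Of the 21 tested genes nearest to the 10 on the chromosome or overlapping them, 2 were higher and 5 lower, a share near the 33.2% called among all tested genes. In 3 cases the direction was that of a called member. These were Mrpl42 beside Socs2 (0.16, adjusted p = 0.0147, edgeR; lost without CpdA replicate 1 at 0.0533 or medium replicate 3 at 0.0622) and Pgs1 and Gm11725 beside Socs3 (-0.13, 0.00109, and -0.86, 0.00667). Among the tested genes above the median level that came closest to Il2rg over the 6 libraries were Hmgb1 and Eif1a. The centred log2 CPM of each, here scaled with the TMM factors of the fit, differed from that of Il2rg by a root mean square of 0.014. Closest to Socs3 were Prkacb (0.0090), C2cd5 (0.014) and Ddx17 (0.015). With 6 libraries in 2 groups such likeness rests mainly on the size of the group difference.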

How the data were processed

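Per the file headers, the deposited values are read counts for each gene in each library, not normalized. Beside them stand the authors' FPKM values, each equal to the count over gene length and library total to within 1.86e-07 of its size. CASAVA 1.8, GRCm38 and mm10 are named in the submitters' processing notes. The sources used here do not give the aligner, counter, annotation or strand setting. No per-sample column was left untied to a sample.

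Counts were tested in R 4.3.3 with edgeR 4.0.16 (quasi-likelihood, robust, TMM, no covariate), after filterByExpr (minimum count 10, minimum total 15), with Benjamini-Hochberg adjustment over all 13507 tested genes. Alternatives used DESeq2 1.42.0, limma 3.58.1 (voom), other scalings and filters, each library left out and a replicate block. The steps were tested on simulated counts. CPM uses library totals, except in the likeness between genes and the correlation of deviations, which use totals scaled by the TMM factors. Ratios of FPKM used exact two-sided permutation tests. At the lowest depth, a count of 0 allows up to 0.148 CPM (3 counts). Chi-square per degree of freedom between libraries of a group was 2.17 to 4.17, so none was a duplicate.

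The members and gene lists were chosen with earlier results of these data known. Named genes are all members, up to 4 called genes with the smallest p per list, the 3 genes most like the member with the smallest p in each direction, and neighbours called in its direction; 1 gene that this rule names is not reported here. Jak1, Foxp3, Ikzf2, Ctla4, Cd5, Trbc2, Gzma, Il6, Il15, Il21, Csf2, Ccnd2, Lta, Osmr and Socs4 to Socs7 lie outside that rule and were named after their values were seen, as were genes that overlap a member. Elob and Eloc are in the table as Tceb2 and Tceb1. Promoters are from RefSeq and overlaps from GENCODE M21.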

Additional observations from a re-analysis of the deposited data

How the results depend on the processing

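Il2, Il2rg, Socs2 and Socs3 kept their direction and their call in every alternative that could test them; the filter of 5 CPM in 3 libraries leaves Il2 untested. The 3 members called higher became 2 to 4 and the 3 called lower 2 to 3, both over the 7 other settings and with any 1 library left out. All tested genes called were 3648 to 4538 over the settings and 3660 to 4336 with a library left out. Il2ra passed with library totals (log2 fold change 0.0655), DESeq2 (0.0566) and limma-voom (0.0562). Pim1 did not pass with the filter of 5 CPM (0.0657). With a library left out, the log2 fold change was 0.0499 to 0.0660 for Il2ra, -0.0855 to -0.0697 for Il2rb, 0.0015 to 0.0579 for Cish, 0.0473 to 0.0990 for Socs1, 0.0654 to 0.0834 for Pim1 and -0.0170 to 0.0792 for Osm, whose sign turned in 2 of the 6 fits (-0.0037 and -0.0170). The cause was not tested.

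The groups share replicate numbers, but the correlation of deviations between same-numbered libraries was -0.22, -0.35 and -0.05, and 0 of 6 libraries correlated best with their own number, so the numbers were not taken as pairs. With the replicate block 3936 genes were called, and Il2rb (-0.0775, adjusted p = 0.0824, edgeR) and Pim1 (0.0754, adjusted p = 0.111) no longer passed. No ratio changed direction in any alternative. In the ratios the block gives the same differences and its sign-flip test of 3 pairs cannot go below an exact p of 0.25.

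Most other named genes were followed through the same alternatives, though not Il6, Il15, Csf2, Ctla4, Cd5, Trbc2 or Gzma. Over the genes followed, 7 of the calls were lost and 1 gained among leave-one-out fits. Among the other settings 1 was lost and 1 gained. Among the 10 members, depth limits Il2 most, with 43 to 102 counts a library.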
